A study of Mus musculus with 18 samples.

Results

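Immortalized mouse embryonic fibroblasts were compared by RNA-seq at 1 h of TNFα (5 ng/ml) and before TNFα, in 3 lines fitted jointly. All 3 lines came from rela-/- cells, which lack the RelA subunit of NF-κB, and were reconstituted with mouse RelA from a retroviral vector, so the RelA studied was not expressed from its own promoter. The lines carried RelA(wt), RelA(TA2), in which L449A and F473A change the second transactivation domain, or RelA(S276A), in which Ser276 in the Rel homology region cannot be phosphorylated. The members were the 6 libraries at 1 h and the 6 at 0 h, 2 in each line, which make 12 of the 18 libraries. The 6 libraries at 2 h are given only side by side. Whether the replicates came from separate cultures is not stated in the labels, and the study's methods call them independent. The comparison was made with the line as a block, and it asked which mRNAs rose and which fell in common, whichever RelA the cells carried. No cells without RelA were among the libraries, so these changes cannot be assigned to RelA. No libraries without TNFα were made at 1 h either, so TNFα cannot be told apart from other differences between the 2 times.

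When TNFα binds its receptor, the kinase IKK is activated and IκBα is degraded, which lets RelA-containing NF-κB dimers enter the nucleus and activate transcription. The same receptor activates MAP kinases, which raise a set of immediate-early genes through SRF, AP-1 and CREB family factors. Fibroblasts answer TNFα with chemokines, cytokines and feedback inhibitors, and much less is commonly said of the mRNAs that decline. The level of an mRNA follows both its synthesis and its decay, and total mRNA does not separate these.

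Levels are given as FPKM, fragments per kilobase of transcript and per M (mega) mapped fragments, added up over the assembled transcripts of a gene. A gene counted as changed when limma, fitted to log2(FPKM + 0.5), gave an adjusted p under 0.05. Changes are differences on that log2 scale, 1 h minus 0 h, which understates the change of low genes. Fragment numbers recovered from the deposited values, per M fragments in genes, give a second measure. It adds up fragments instead of FPKM over the same assembled transcripts, so it too rests on the assembly.

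Falls and rises were of similar number, and the falls were shallower. Of 11663 genes tested, 168 fell (1.44%) and 157 rose (1.35%). Which of these counts was larger depended on the scaling and filter, with 138 falls and 172 rises under median-of-ratios scaling, 153 and 166 under quantile normalization and 157 and 160 without a filter. Among the 162 fallen genes above 0 in all 12 libraries, the median change was -0.47 (a 1.38-fold lower level), and 6 fell at least 2-fold. Among the 144 risen genes above 0 throughout, the median was 1.02 (2.03-fold), and 73 rose at least 2-fold. All 168 fallen genes had a lower mean at 1 h in each line, and in 162 of them both libraries at 1 h lay below both at 0 h in every line. That pattern was met by 495 (4.24%) of all genes tested, and the reverse by 260 (2.23%). In 119 of the 168, all 6 libraries at 1 h lay below all 6 at 0 h. This last count was not made over all genes tested, and the 168 were chosen by a test on the same libraries. The median change of the fallen genes was -0.44 for RelA(wt), -0.49 for RelA(TA2) and -0.47 for RelA(S276A). Recovered fragments called many more genes at the same threshold, 1057 that fell (9.35%) and 514 that rose (4.54%) of 11310. These included 159 of the 168 falls and 145 of the 157 rises. Without replicate 1 of RelA(S276A) at 0 h, 111 genes fell by FPKM.

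**Figure D1:**
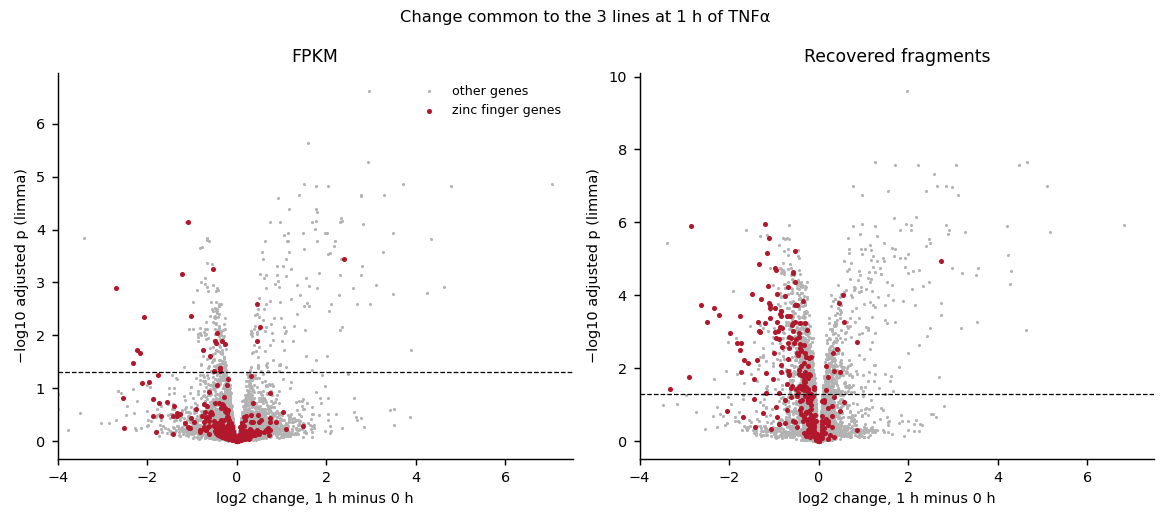
Log2 change common to the lines (x) against −log10 of the adjusted p from limma (y) for every gene tested, by FPKM (left) and by recovered fragments (right); the dashed line marks 0.05. Red points are zinc finger genes named Zfp, Zkscan or Zscan, of which 20 fell by FPKM and 132 by fragments, most of them to the left of 0.

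Depth ran from 25.2 M to 31.2 M mapped fragments a library, with 11591 to 11761 genes above 0. Mapped fragments did not differ detectably between times (exact permutation test within lines, two-sided, p = 0.880, smallest possible 0.00926). The cells had the mRNAs of fibroblasts: 16 of 17 fibroblast markers had a median of 1 FPKM or more before TNFα, Vim reaching 2006 FPKM. Markers of other cells were at 0 in all 12 libraries for 5 of 9 macrophage, 6 of 8 endothelial, 7 of 8 epithelial and 8 of 13 muscle, fat and nerve genes, and of these lists only Cd68 changed (log2 0.54, adjusted p = 0.0476), a call not made with fragments and lost without 10 of the 12 libraries in turn. Rela itself stood at 165.0 and 176.3 FPKM at 0 h in RelA(wt) cells, at 314.9 and 343.7 in RelA(TA2) cells and at 174.1 and 185.5 in RelA(S276A) cells. These are mRNA levels, and the study reported less RelA protein in RelA(S276A) cells than in RelA(wt) cells. Rela mRNA did not pass the test at 1 h (log2 change 0.10, SE 0.06, adjusted p = 0.554). Gapdh, a glycolytic enzyme used as a reference, also did not (log2 change -0.01, SE 0.07, adjusted p = 0.965).

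The named falls are given by role, starting with regulators of transcription and growth. In mm10, Sertad3 lies at chr7:27473840-27477364, plus strand, 2 exon blocks, and it encodes a SERTA domain protein that acts in transcription. It ran from 6.46 to 8.50 FPKM at 0 h (median 7.40) and 2.27 to 3.52 FPKM at 1 h (median 3.21). Every library at 1 h lay below every library at 0 h (log2 change -1.13, SE 0.08, adjusted p = 7.35e-05). The change was -1.14 for RelA(wt), -1.16 for RelA(TA2) and -1.10 for RelA(S276A), and -1.31 by fragments. Mnt, a partner of Max that represses Myc target genes, lies at chr11:74830924-74845725, plus strand, 6 exon blocks. It had 15.1 to 25.03 FPKM at 0 h (median 23.9) and 10.96 to 13.3 FPKM at 1 h (median 11.8), again without overlap (log2 change -0.80, SE 0.09, adjusted p = 0.00100). In the same libraries Myc rose, with a log2 change of 1.55 (adjusted p = 8.21e-04), and its response differed between the lines. Phf13, a PHD finger protein that binds methylated histone H3, had 10.9 to 15.3 FPKM at 0 h (median 13.8) and 5.36 to 8.60 FPKM at 1 h (median 6.66) (log2 change -0.97, SE 0.13, adjusted p = 0.00236). Med18, a subunit of the Mediator head module, stayed low throughout, at 2.45 to 3.96 FPKM at 0 h (median 3.09) and 1.01 to 2.24 FPKM at 1 h (median 1.74) (log2 change -0.75, SE 0.15, adjusted p = 0.0248).

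Promoter sequences are shown for 2 of these falls and for 2 genes that rose, because NF-κB is the factor that the study varied and its sites are known in the risen genes. They come from RefSeq (GRCm38.p6), run from 250 bases before to 50 bases after the annotated start, and are written on the gene's strand. Capitals mark the κB consensus in Nfkbia and Cxcl1 and CACGTG, the E-box core, in Mnt. Sertad3 held neither. The windows are chr12:55492598-55492897, minus strand, for Nfkbia, chr5:90890995-90891294, plus strand, for Cxcl1, chr11:74830674-74830973, plus strand, for Mnt and chr7:27473590-27473889, plus strand, for Sertad3.
Nfkbia: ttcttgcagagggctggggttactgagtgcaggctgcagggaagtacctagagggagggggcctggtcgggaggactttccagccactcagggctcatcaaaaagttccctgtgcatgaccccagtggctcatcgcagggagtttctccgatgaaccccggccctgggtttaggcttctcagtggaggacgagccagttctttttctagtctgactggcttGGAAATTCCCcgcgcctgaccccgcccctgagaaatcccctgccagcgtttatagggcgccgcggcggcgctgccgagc
Cxcl1: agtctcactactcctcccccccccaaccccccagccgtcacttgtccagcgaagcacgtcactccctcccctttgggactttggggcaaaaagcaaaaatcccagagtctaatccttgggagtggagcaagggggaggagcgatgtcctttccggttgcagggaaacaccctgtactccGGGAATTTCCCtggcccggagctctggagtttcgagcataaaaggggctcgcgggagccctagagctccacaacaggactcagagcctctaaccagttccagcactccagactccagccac
Mnt: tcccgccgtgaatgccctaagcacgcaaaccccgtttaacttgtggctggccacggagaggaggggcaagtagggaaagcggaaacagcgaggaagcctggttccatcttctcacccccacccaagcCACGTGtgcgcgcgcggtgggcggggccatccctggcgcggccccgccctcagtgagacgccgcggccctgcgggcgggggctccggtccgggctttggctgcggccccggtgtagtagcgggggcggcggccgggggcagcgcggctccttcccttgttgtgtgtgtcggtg
Sertad3: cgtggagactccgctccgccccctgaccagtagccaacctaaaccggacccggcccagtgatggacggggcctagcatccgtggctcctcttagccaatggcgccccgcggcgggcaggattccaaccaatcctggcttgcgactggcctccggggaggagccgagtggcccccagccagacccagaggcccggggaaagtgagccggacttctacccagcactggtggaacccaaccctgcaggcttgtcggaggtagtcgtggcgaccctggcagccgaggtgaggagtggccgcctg

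Promoters matched 139 of the 168 fallen genes, 119 of the 157 risen genes and 9260 of all genes tested, and were searched on both strands. The κB consensus was found in 7 fallen (5.04%) and 16 risen promoters (13.4%), against 5.13% of all genes tested and 4.51% of the 32851 promoters in the table. The CArG box of SRF was found in 0.72% of fallen and 7.56% of risen promoters (1.21% of genes tested, 1.63% of all promoters). TGACGTCA, the full CREB site, was found in 2.16% of fallen and 9.24% of risen promoters (3.35% and 1.79%). TATAAA was found in 6.47% of fallen and 21.0% of risen promoters (6.73% and 13.6%). CACGTG was found in 10.8% of fallen and 10.9% of risen promoters (10.4% and 7.15%). For these motifs the fallen genes stood close to the genes tested at large or below them. TGANTCA, the AP-1 site, was found in 3.60% of fallen and 8.40% of risen promoters (4.73% and 7.81%), and CCAAT in 46.0% and 48.7% (39.3% and 37.4%).

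Several further falls belonged to signalling, adhesion and metabolism. Txnip, which restrains glucose uptake and binds thioredoxin, lies at chr3:96557957-96561857, plus strand, 8 exon blocks. It had 58.4 to 89.5 FPKM at 0 h (median 72.8) and 21.5 to 66.5 FPKM at 1 h (median 32.2), and the ranges overlapped because RelA(wt) cells started highest and fell least (log2 change -0.99, SE 0.16, adjusted p = 0.00756). By line the change was -0.50 for RelA(wt), -0.98 for RelA(TA2) and -1.48 for RelA(S276A), a difference between lines that did not pass the test (adjusted p = 0.437, limma F test). Jub (now Ajuba), a LIM protein of cell junctions that inhibits Hippo signalling, lies at chr14:54567469-54577661, minus strand, 8 exon blocks. Its libraries ran from 11.7 to 25.9 FPKM at 0 h (median 16.2) and 6.10 to 8.24 FPKM at 1 h (median 7.58), without overlap (log2 change -1.08, SE 0.17, adjusted p = 0.00756). Lrrc32, which holds latent TGF-β at the cell surface, had 18.1 to 37.0 FPKM at 0 h (median 20.4) and 11.1 to 18.1 FPKM at 1 h (median 12.7) (log2 change -0.77, SE 0.07, adjusted p = 2.15e-04). The RelA(TA2) libraries were the highest at both times, and their higher value at 1 h lay only just below the lowest library of the other lines at 0 h. At 2 h the median of Lrrc32 was 61.5 FPKM, above every library at 0 h.

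Ephb3, a receptor tyrosine kinase for ephrin-B ligands, had 5.93 to 12.1 FPKM at 0 h (median 7.22) and 3.53 to 4.93 FPKM at 1 h (median 3.81) (log2 change -0.86, SE 0.15, adjusted p = 0.0106). Rhebl1, a small GTPase related to the mTORC1 activator Rheb, had 8.02 to 17.4 FPKM at 0 h (median 12.4) and 5.64 to 7.78 FPKM at 1 h (median 6.71) (log2 change -0.79, SE 0.17, adjusted p = 0.0370). Fhdc1, a formin that acts on actin and microtubules, had 5.16 to 8.53 FPKM at 0 h (median 7.70) and 3.11 to 4.64 FPKM at 1 h (median 4.01) (log2 change -0.83, SE 0.14, adjusted p = 0.00896). In all 3 the libraries at 1 h lay below those at 0 h without overlap. 6230427J02Rik (now Inka1), an inhibitor of the kinase PAK4, had 12.2 to 16.8 FPKM at 0 h (median 16.3) and 4.98 to 10.9 FPKM at 1 h (median 9.66) (log2 change -0.79, SE 0.13, adjusted p = 0.0101). 1520402A15Rik (now Lurap1), a leucine-rich adaptor, had 3.59 to 6.16 FPKM at 0 h (median 4.65) and 1.25 to 4.64 FPKM at 1 h (median 2.45) (log2 change -0.79, SE 0.17, adjusted p = 0.0353). Here the RelA(wt) libraries at 1 h, the highest of that time, overlapped the lowest at 0 h.

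Among genes of cell death and chromosome ends, Casp2, an initiator caspase, had 6.47 to 9.55 FPKM at 0 h (median 9.31) and 3.86 to 5.01 FPKM at 1 h (median 4.34), without overlap (log2 change -0.90, SE 0.11, adjusted p = 0.00138). Terf2, which encodes the telomere-binding protein TRF2, had 25.05 to 78.8 FPKM at 0 h (median 38.1) and 12.6 to 33.6 FPKM at 1 h (median 18.7), with overlap between lines, since RelA(S276A) cells started highest and RelA(wt) cells lowest (log2 change -1.18, SE 0.25, adjusted p = 0.0393). Its fragments changed less, by -0.37. Bmf, a BH3-only protein that promotes apoptosis, ran from 2.40 to 8.84 FPKM at 0 h and was listed at 0 in all 6 libraries at 1 h and at a median of 0 at 2 h. It passed the filter only through the libraries at 0 h, so a fall was the only outcome open to it. Of the 18 survival and cell death regulators tested it was the 1 gene that changed by FPKM, and no fold is given against a listed 0. By fragments 3 of the 18 fell (Bak1, Bid and Bmf), 16.7% against 9.35% of all genes. By that measure 5 rose (Bcl10, Birc3, Cflar, Mcl1 and Tnfrsf10b), and 4.54% of all genes did. Casp9, the initiator caspase of the mitochondrial pathway and named here after its value was seen, also fell (log2 change -0.52).

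Transcripts without a protein product fell as well. 1700020I14Rik (now Oip5os1), a conserved long non-coding RNA, had 6.31 to 8.45 FPKM at 0 h (median 7.14) and 3.11 to 4.39 FPKM at 1 h (median 3.86), without overlap (log2 change -0.82, SE 0.07, adjusted p = 2.20e-04). 4933436C20Rik (now Crnde), also non-coding, had 5.75 to 12.4 FPKM at 0 h (median 7.33) and 3.15 to 5.18 FPKM at 1 h (median 4.22) (log2 change -0.87, SE 0.14, adjusted p = 0.00942), with a change of -0.54 by fragments. In a list of host and non-coding genes named Snhg, Mir or Gas5, none of 14 changed by FPKM (median change -0.09) and none of 13 by fragments. Mir546, which was outside that list, fell (-0.25), but it was joined with a neighbour and had the same values as Ctdsp2.

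**Figure D2:**
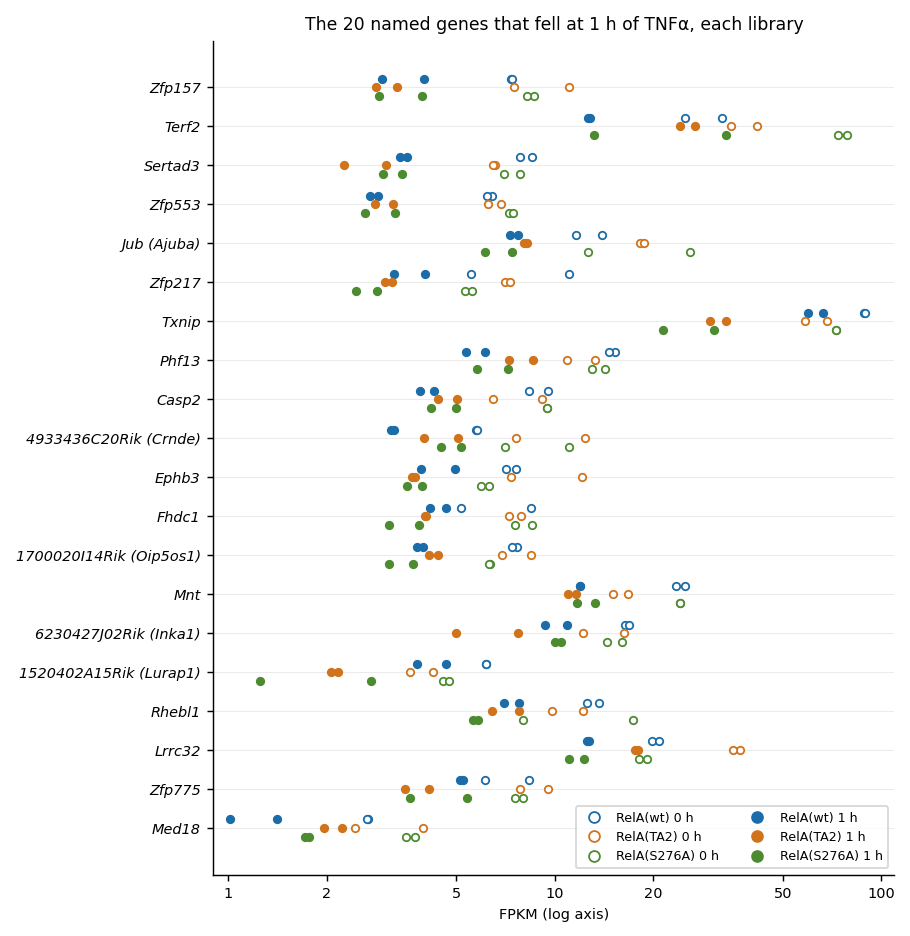
FPKM (x, log axis) of the 20 named falls in each of the 12 libraries; open circles are 0 h, filled circles 1 h, and colours are the 3 lines. In every gene and line both filled circles lie to the left of both open circles, which the rule that named them required; Sertad3 went from 6.46 to 8.50 FPKM at 0 h to 2.27 to 3.52 at 1 h.

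Genes of C2H2 zinc finger proteins formed the most numerous family among the falls. These proteins bind DNA through arrays of zinc fingers, and many carry a KRAB domain, which recruits a corepressor complex. The family was taken by symbol (Zfp, Zkscan, Zscan), which leaves out members with other names and takes in a few of another kind, such as Zfp36, an mRNA decay factor. Of 316 genes tested, 20 fell (6.33%, against 1.44% of all genes) and 4 rose. Both libraries at 1 h lay below both at 0 h in all 3 lines in 34 of the 316, a pattern met by 4.24% of all genes. The reverse was met by 6 of the 316 and by 2.23% of all genes. By recovered fragments, 132 of 306 fell (43.1%, against 9.35% of all genes) and 12 rose. The median fragment change was -0.26, against -0.03 for all genes. Among genes above 0 in all 12 libraries, 114 of 277 fell by fragments (41.2%, against 9.61%), with a median of -0.23. Members share similar sequence, so that reads can be split between them and single values are uncertain. By FPKM the count fell to between 11 and 13 without any of the 4 RelA(TA2) libraries, either RelA(S276A) library at 0 h or replicate 1 of RelA(wt) at 0 h.

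Zfp157 fell most among the members detected throughout and lies at chr5:138441476-138460694, plus strand, 5 exon blocks. It had 7.37 to 11.03 FPKM at 0 h (median 7.84) and 2.83 to 3.97 FPKM at 1 h (median 3.12), without overlap (log2 change -1.21, SE 0.13, adjusted p = 6.80e-04). Zfp553 had 6.18 to 7.45 FPKM at 0 h (median 6.64) and 2.62 to 3.24 FPKM at 1 h (median 2.85) (log2 change -1.09, SE 0.08, adjusted p = 7.35e-05), and its change was -1.05 for RelA(wt), -1.01 for RelA(TA2) and -1.20 for RelA(S276A). Zfp217, which works with corepressors and is amplified in tumours, had 5.32 to 11.03 FPKM at 0 h (median 6.32) and 2.46 to 3.998 FPKM at 1 h (median 3.09) (log2 change -1.01, SE 0.15, adjusted p = 0.00427). None of these 3 overlapped between times. Zfp775 had 6.11 to 9.54 FPKM at 0 h (median 7.91) and 3.48 to 5.39 FPKM at 1 h (median 4.62) (log2 change -0.76, SE 0.14, adjusted p = 0.0191), and Zfp212 had 8.60 to 9.50 FPKM at 0 h (median 9.02) and 5.41 to 6.66 FPKM at 1 h (median 6.25) (log2 change -0.54, SE 0.06, adjusted p = 5.57e-04). Zfp108, Zfp40, Zfp939, Zfp759 and Zfp128 also fell but were listed at 0 in 3 to 6 libraries at 1 h. Zfp108 and Zfp128 passed the filter only through the libraries at 0 h, so a fall was the only outcome open to them. The remaining 10 falls ran from -0.26 (Zfp146) to -0.60 (Zfp161). Against the direction of the family, Zfp36, whose product destabilizes AU-rich mRNAs, rose from a median of 3.47 to 22.9 FPKM, and Zkscan6 (log2 0.44), Zfp868 (log2 0.51) and Zfp869 (log2 0.44) rose slightly.

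Line by line, 207 of the 306 zinc finger genes (67.6%) had fewer fragments at 1 h in RelA(wt) cells, against 53.7% of all genes. The count was 236 (77.1%, against 62.9%) in RelA(TA2) cells and 245 (80.1%, against 56.9%) in RelA(S276A) cells. By FPKM the shares lay closer to those of all genes, at 59.2% (against 53.7%) for RelA(wt), 64.2% (against 62.9%) for RelA(TA2) and 58.5% (against 49.4%) for RelA(S276A). The summed fragments of the family ran from 6596 to 7096 per M at 0 h and from 5793 to 6207 at 1 h, and the times did not overlap. Its summed FPKM ran from 3265 to 9486 at 0 h and from 3304 to 4091 at 1 h, and these ranges overlapped. Most members are of low level, and their excess over other genes was seen within levels as well. When all genes were cut into 4 equal groups by mean FPKM, in the lowest 52.5% of zinc finger genes fell by fragments, against 9.46% of other genes. In the group above it the shares were 34.3% and 11.5%. The 2 upper groups held 18 and 10 members, of which 3 and 1 fell. The falls were spread over the genome, with 36 of 71 members on chromosome 7, 17 of 40 on chromosome 17 and 14 of 29 on chromosome 13.

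**Figure D3:**
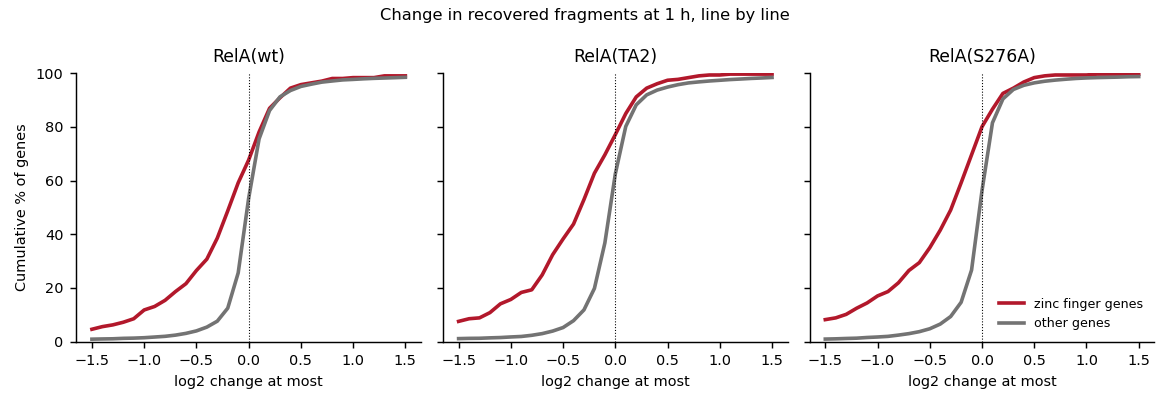
Cumulative percent of genes (y) whose log2 change in recovered fragments at 1 h is at most the value on x, for zinc finger genes (red) and all other genes (grey) in each line. The red curve lies to the left of 0 for 67.6%, 77.1% and 80.1% of members in RelA(wt), RelA(TA2) and RelA(S276A) cells.

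Zinc finger genes with a BTB domain, a separate family of repressors and chromatin regulators, gave 2 falls among 31 by FPKM (6.45%, against 1.44% of all genes) and 13 by fragments (41.9%, against 9.35%). Zbtb7a, a repressor that controls lineage choice and glycolysis genes, had 12.1 to 15.3 FPKM at 0 h (median 13.4) and 8.09 to 9.38 FPKM at 1 h (median 8.31), without overlap (log2 change -0.63, SE 0.05, adjusted p = 1.65e-04). Zbtb7b, the regulator of CD4+ T cell fate also called ThPOK, fell too (log2 change -0.57, SE 0.07, adjusted p = 0.00238). The following 4 falls belong to no list and are named here after their values were seen. Hic1 changed by -0.70, Nab2, which restrains the Egr factors, by -0.56, Tle3, a Groucho corepressor, by -0.47, and Rest, the silencer of neuronal genes, by -0.47. The homeodomain, Sox, Fox and Tbx factors gave no fall and 1 rise among 42 by FPKM, but 13 falls (31%, against 9.35% of all genes) and 4 rises by fragments. For the chromatin and histone modifiers these numbers were 0 falls and 2 rises of 49 by FPKM and 12 falls (24.5%, against 9.35%) and 4 rises by fragments. Crebbp (log2 change -0.22, adjusted p = 0.650) and Ep300 (log2 change 0.05, adjusted p = 0.929), the acetyltransferases that RelA binds, did not pass the test, and the sign of each was the other by fragments (0.01 and -0.12).

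A smaller group of falls came from genes linked to quiescence and nutrient sensing. FOXO target and quiescence genes gave 3 falls and 1 rise among 20 by FPKM (15% fell, against 1.44% of all genes), and 9 falls (45%, against 9.35%) and 2 rises by fragments. Ccng2, an atypical cyclin that holds cells out of the cycle, had 9.93 to 11.5 FPKM at 0 h (median 10.5) and 4.90 to 7.58 FPKM at 1 h (median 6.13), without overlap (log2 change -0.72, SE 0.08, adjusted p = 0.00106). Tob1 and Tob2, antiproliferative proteins that recruit the CCR4-NOT deadenylase to mRNAs, fell by 0.44 and 0.66 on the log2 scale. Tob2 had 18.1 to 20.7 FPKM at 0 h (median 19.3) and 11.5 to 13.0 FPKM at 1 h (median 12.03), without overlap, and its change was -0.60 for RelA(wt), -0.80 for RelA(TA2) and -0.58 for RelA(S276A). The rise was that of Cited2, a CBP-binding regulator, which had 68.1 to 89.2 FPKM at 0 h (median 79.3) and 215.7 to 255 FPKM at 1 h (median 236) (log2 change 1.58, SE 0.06, adjusted p = 2.33e-06). Cdkn1b, the inhibitor p27, fell by fragments (-0.82) but did not pass by FPKM (-0.46), and Pdk4, which limits glucose oxidation, did likewise (-1.24 and -0.71). Of 8 genes of glucose sensing by MondoA, Txnip fell by FPKM, while 5 fell (62.5%, against 9.35% of all genes) and Arrdc3 (0.65) rose by fragments. Hbp1 (-0.42), a transcriptional brake on the cell cycle, was among the 5.

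The mRNA decay genes moved both ways. Beside the falls of Tob1 and Tob2 (9.09%), 4 of 22 rose (18.2%). For this and the next lists, 1.44% of all genes fell and 1.35% rose by FPKM. Btg2, of the same protein family as Tob1, went from a median of 14.0 to 97.8 FPKM and Zfp36l1, a relative of Zfp36, from 17.5 to 39.3. Btg1 rose by 0.49 and Zfp36 by 2.39 on the log2 scale. Of the circadian clock genes, Cry2 (-0.47) and Tef (-0.29) fell and Nfil3, which competes with Tef for the same DNA sites, rose (1.10), among 15 tested. Cry2 lost its call without 11 of the 12 libraries in turn and Tef without 8. Of G protein signalling genes, the sphingosine-1-phosphate receptor S1pr2 fell (log2 change -0.47, SE 0.06, adjusted p = 0.00145) and Rgs16 and Rgs2, which shut off G proteins, rose (2.78 and 0.82), among 22. Tab1, an activator of the kinase TAK1, was the 1 change by FPKM among 17 genes of TNF receptor signalling (log2 change -0.32, SE 0.05, adjusted p = 0.0111). Its libraries had 8.63 to 9.96 FPKM at 0 h (median 9.33) and 6.82 to 8.09 FPKM at 1 h (median 7.32). By fragments 4 of the 17 fell (23.5%, against 9.35% of all genes), Tab1, Traf2, Map3k14 and Tnfrsf1b.

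The rises common to the lines took in immediate-early factors, cytokines, chemokines and feedback inhibitors. Immediate-early factors gave 20 rises among 25 tested (80%, against 1.35% of all genes) and no fall, cytokines and chemokines 7 among 13, MAP kinase feedback inhibitors 8 among 15, and YAP and SRF targets 7 among 13. Cxcl1, which draws neutrophils into inflamed tissue, had no listed value above 0 in the 6 libraries at 0 h and reached 24.2 to 200.2 FPKM at 1 h (median 47.6). Cxcl10, Il23a, Fos and Kprp were also listed at 0 before TNFα, and reached medians of 12.7, 3.56, 4.85 and 4.005 FPKM. Cxcl1, these genes and Ccl20, also listed at 0 before TNFα, passed the filter only through the libraries at 1 h. A rise was therefore the only outcome open to them, and no p is given. The counts above take in Fos among the immediate-early factors and Cxcl1, Cxcl10 and Ccl20 among the cytokines and chemokines. Tnfaip3, the ubiquitin editor A20, had 2.44 to 7.18 FPKM at 0 h (median 4.61) and 50.7 to 283 FPKM at 1 h (median 163) (log2 change 4.77, SE 0.27, adjusted p = 1.51e-05). Nfkbia, the gene of IκBα, had 12.8 to 34.1 FPKM at 0 h (median 14.2) and 162 to 395 FPKM at 1 h (median 192) (log2 change 3.71, SE 0.19, adjusted p = 1.37e-05). Both feedback genes rose without overlap between times.

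Egr1, an immediate-early zinc finger factor, had 12.1 to 28.0 FPKM at 0 h (median 15.7) and 150.0 to 699.9 FPKM at 1 h (median 356) (log2 change 4.35, SE 0.36, adjusted p = 1.50e-04). Atf3, a stress-induced bZIP factor, had 1.78 to 20.9 FPKM at 0 h (median 10.5) and 51.6 to 108 FPKM at 1 h (median 79.7) (log2 change 3.26, SE 0.30, adjusted p = 2.69e-04). Ctgf (now Ccn2), a matricellular protein, had 1.60 to 9.54 FPKM at 0 h (median 6.12) and 26.3 to 104 FPKM at 1 h (median 47.8) (log2 change 3.11, SE 0.36, adjusted p = 0.00114). Each rose without overlap, and at 2 h the medians of the 3 genes were 5.91, 12.1 and 18.8 FPKM. Id1 and Id3, inhibitors of bHLH factors, rose by 2.81 and 2.03 on the log2 scale, 2 of 13 BMP and TGF-β target genes. Of the p53 target genes 8 of 18 rose, among them Plk2 (2.36), a kinase of the centrosome, and Mdm2 (0.97), the ligase that degrades p53. In the integrated stress list 3 of 14 rose, with Ppp1r15a (1.61), which directs the phosphatase of eIF2α. Of 19 NF-κB inhibitors and subunits 3 rose by FPKM, Nfkbiz (2.68) besides the 2 above, and 10 by fragments. Beside these counts, 1.35% of all genes tested rose by FPKM and 4.54% by fragments. Of 13 Klf factors 4 rose, Klf6 from a median of 38.8 to 151 FPKM. Actb, the gene of β-actin, rose by 0.40 (adjusted p = 0.00413), 1 of 12 housekeeping genes.

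Among 5 tested genes of histones made without a poly(A) tail, 2 rose (40%, against 1.35% of all genes). Hist1h2bg went from a median of 0 to 3.04 FPKM and Hist1h2bc rose by 0.81 on the log2 scale. The fragments of all 12 histone genes of the list summed to a median of 28.4 per M at 0 h and 58.9 at 1 h (range 9.94 to 49.7 and 38.0 to 102, exact permutation test within lines, p = 0.00926, the smallest these libraries allow). The ranges overlapped between lines. The labels name poly-dT priming and an mRNA library kit, and whether the capture of these RNAs varied was not tested.

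**Figure D4:**
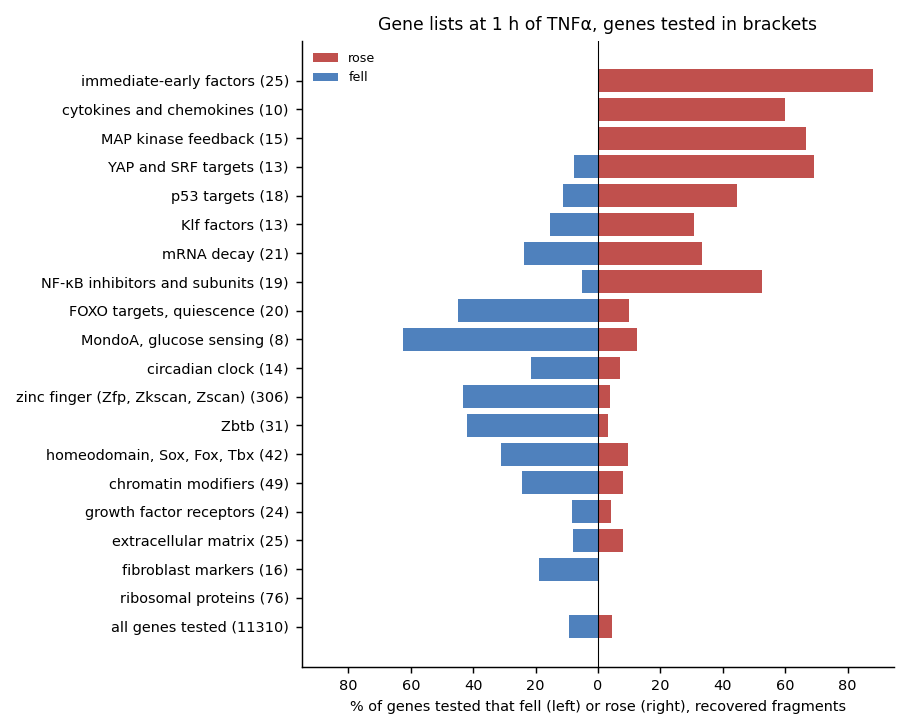
Percent of the genes tested in each list (number in brackets) that fell (blue, left) or rose (red, right) by recovered fragments, adjusted p under 0.05. Of all genes 9.35% fell and 4.54% rose; zinc finger genes (43.1%), Zbtb genes (41.9%), FOXO targets (45%) and MondoA genes (62.5%) lie to the left, and immediate-early factors to the right.

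Some large groups of genes gave no calls, and smaller lists differed. None of 76 ribosomal protein genes and none of 71 genes of oxidative phosphorylation passed the test in limma, and none did by fragments. The cell cycle list (30 tested), cholesterol synthesis (15), growth factor receptors (25), Notch, Hedgehog and Wnt targets (13), kinesins (27) and the 17 fibroblast markers gave no change by FPKM, while fragments called 2, 0, 3, 2, 2 and 3 of them. By fragments 9.35% of all genes fell and 4.54% rose. The fibroblast markers called were all falls, 18.8% of the 16 tested by fragments. Of all genes 1.35% rose by FPKM. Extracellular matrix genes gave 1 rise among 25 (4%), Lox (0.40). Matrix proteases and adhesion molecules gave 2 rises among 13 (15.4%), and 6 rises and 1 fall by fragments. Hypoxia and glycolysis genes gave 1 rise among 18 (5.56%), and 3 rises and 1 fall by fragments. Heat shock proteins gave 1 among 12 (8.33%), interferon-stimulated genes 1 among 15 (6.67%) and F-box and kelch adaptors 1 among 73 (1.37%). Of 173 solute carriers 2 rose and 2 fell (1.16% each).

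The genes that fell by FPKM spanned less of the genome. Their median genomic span was 12.3 kb, against 22.3 kb for all genes tested and 8.82 kb for risen genes, and they had a median of 5 exon blocks, against 9 and 5. Their exonic length was not short, at a median of 3451 bases against 3199 for all genes and 2890 for risen genes. In 4 equal groups of all genes by span, from the shortest to the longest, 2.06%, 2.06%, 1.23% and 0.41% fell by FPKM. By fragments the order was another, with 9.39%, 11.8%, 11.1% and 5.10%, so that the shortest genes fell about as often as all genes (9.35%). Before TNFα their median level was 10.6 FPKM.

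The test of the difference between lines was passed by 37 genes (0.317%), of which 7 had risen in common and 0 had fallen. At an unadjusted p under 0.05, it was passed by 10 of the 168 fallen genes, 55 of the 157 risen genes and 836 of all genes. By recovered fragments, at an adjusted p under 0.05, it was passed by 2 of the fallen and 18 of the risen genes. The count over all genes by fragments is given with the alternatives below. A p that misses the threshold does not show that the lines responded alike. The changes at 2 h share their 0 h libraries with those at 1 h, and the genes were chosen at 1 h, so the later values are given side by side with no test. For the fallen genes, the median fragment change at 1 h and 2 h was -0.44 and -0.08 for RelA(wt), -0.45 and -0.12 for RelA(TA2) and -0.50 and -0.11 for RelA(S276A). For all genes tested the 2 h medians were -0.06, -0.08 and -0.06. For the risen genes these medians were 1.41 and 0.50, 1.18 and 0.43, and 0.98 and 0.42. Ephb3, with a 2 h median of 3.68 FPKM, and Ccng2, with 4.56, were below their 1 h medians at 2 h. Sertad3 stood at 4.53, between its 0 h and 1 h medians, and Zfp157 at 7.78, close to its 0 h median.

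**Figure D5:**
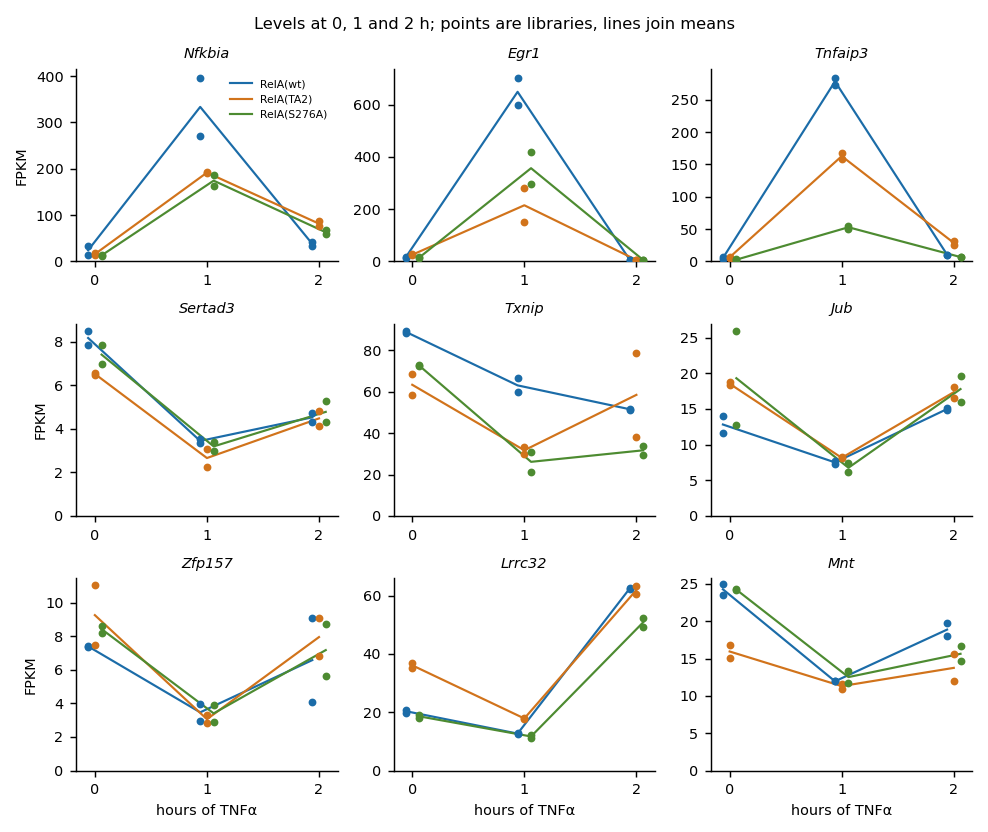
FPKM (y, from 0) at 0, 1 and 2 h of TNFα (x) for 3 risen and 6 fallen genes; points are libraries and lines join the means of 2 in each cell line. The fallen genes are lower at 1 h than at 0 h in all 3 lines. At 2 h they differ: the median of Lrrc32 reached 61.5 FPKM, that of Sertad3 4.53, and Txnip in RelA(wt) cells was lower than at 1 h.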

How the data were processed

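The study sequenced mRNA on an Illumina instrument, and the labels name poly-dT priming and TruSeq kits. According to the submitters' processing notes, bases were called with CASAVA 1.8.2, TopHat2 2.0.5 with Bowtie2 2.0.0.7 aligned the reads to mm10, and Cufflinks 2.0.2 assembled transcripts library by library. Whether counting used strand is not given in the sources used here. The deposited values are the FPKM of each assembled transcript with its confidence limits, which the authors' assembly had already scaled for depth and length. The study tested genes with Cuffdiff, which needs the reads and was not rerun.

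Transcripts were placed on the genes of the merged assembly by exon overlap (Python 3.11.15, numpy 2.4.6, pandas 2.3.3), which had to reach 50% of either the transcript or the exons of the gene. FPKM were summed per gene, and a gene without a transcript was listed at 0. Of 23212 genes, the 11663 with at least 1 FPKM in at least 6 of the 12 libraries were tested, of which 523 shared a transcript with a neighbouring gene and 928 were at 0 in some library. For transcripts alone in their assembled locus, fragments were recovered from the FPKM and its upper limit. Of those checked, below 500, 88.9% to 89.8% lay within 0.02 of a whole number. For the other transcripts, fragments were estimated from FPKM and transcript length. A gene without a transcript had 0 fragments as well. limma 3.58.1 in R 4.3.3 was fitted to log2(FPKM + 0.5) with line and time as terms and a variance trend, two-sided, with p adjusted by Benjamini and Hochberg over all genes tested. The difference between lines was tested with 1 mean per line and time. Duplicate libraries had a median SD of 0.11 (log2) for FPKM and 0.064 for fragments. On simulated data of this comparison over the same genes, the FPKM test found 20.6%, 52.9% and 81.8% of falls of 0.5, 1 and 2 (log2), with 3.54% of calls false, and fragments found 91.2%, 85.3% and 100%, with 6.03% false.

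Named falls were up to 20 called genes with the largest fall that were above 0 in all 12 libraries, not joined, without overlap in any line and called by fragments too, 143 being eligible. Named rises were up to 10 by the same rule with a 0 before TNFα allowed. Up to 4 called members per list and direction, up to 5 line differences, and Rela, Nfkbia, Tnfaip3, Crebbp, Ep300, Actb and Gapdh completed the rule, not all of which are printed. A gene list that was also examined is not reported here. The members and lists were chosen with earlier results of these data known. In 32 alternatives, the added amount, filter, scaling, measure, block, libraries and lines were changed.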

Additional observations from a re-analysis of the deposited data

Results flagged for a closer look

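For 7 genes that rose in common, the size of the rise differed between the lines (limma F test of line by time, adjusted p under 0.05). Of the 168 common falls, 0 passed that test. In each of the 7 a mutant line rose less than RelA(wt) cells. The values below are changes in a mutant line minus the change in RelA(wt) cells, on the log2 scale, for the line that differed more. The study reported less RelA protein in RelA(S276A) cells than in RelA(wt) cells, and whether this affected the rises was not tested.

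Wdr92, which encodes a WD repeat protein, differed by -2.20 in RelA(S276A) cells, and its rise in common was not called without 8 of the 12 libraries in turn. It went from 34.7 and 32.9 FPKM at 0 h to 189.1 and 196.2 FPKM at 1 h in RelA(wt) cells, and from 22.0 and 21.5 to 27.9 and 25.7 FPKM in RelA(S276A) cells. Irf1, a transcription factor of the interferon response, differed by -2.67 in RelA(S276A) cells, where it reached 10.5 and 10.7 FPKM at 1 h, against 70.5 and 58.7 FPKM in RelA(wt) cells. Ccl20, a chemokine, was listed at 0 before TNFα in every line and had 42.6 and 36.0 FPKM at 1 h in RelA(wt) cells and 1.95 and 3.18 FPKM in RelA(S276A) cells, a difference of -3.72 that depends on the 0.5 added before the logarithm. Cxcl1, likewise listed at 0 before TNFα, had 172.6 and 200.2 FPKM in RelA(wt) cells and 39.1 and 24.2 FPKM in RelA(S276A) cells (-2.58). Fam43a differed by -1.39 in RelA(S276A) cells. Rgs16 differed by -1.20 and Myc by -1.22, both in RelA(TA2) cells, where Myc also stood higher before TNFα, at 32.7 and 33.1 FPKM against 17.8 and 19.7 FPKM in RelA(wt) cells. RelA(S276A) cells had 31.2 and 31.4 FPKM of Myc before TNFα. Groups of 2 libraries allow no search for single outlying libraries.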

How the results depend on the processing

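None of the 96 named genes that passed the test changed direction under the alternatives run. Of the 4 that did not pass, Crebbp (-0.22 with a range from -0.46 to 0.01), Ep300 (0.05, from -0.13 to 0.19) and Gapdh (-0.01, from -0.08 to 0.08) changed sign, and Rela did not. Over named genes and alternatives, 2790 results kept their side of the threshold and 332 lost it. The count of falls (168) was 109 with the highest transcript only, 1057 with recovered fragments, 271 with condition means over all 18 libraries, and 30, 105 and 24 without the RelA(wt), RelA(TA2) or RelA(S276A) line. In that order, 60, 159, 151, 24, 69 and 20 of these were among the 168, so with the highest transcript only most of the 168 lost their call. Without each library in turn the count of falls ran from 111 to 200, and the rises (157) from 125 to 178. The rises were 514 with recovered fragments and 85 and 83 without the RelA(wt) or RelA(S276A) line. Alternatives chosen after seeing the data gave 1050 falls, 511 rises and 118 zinc finger falls with fragments of genes above 0 in all 12 libraries. The zinc finger falls (20) were 13 under a filter of 5 FPKM, 12 with the highest transcript only, 132 with fragments, 5, 6 and 3 without the RelA(wt), RelA(TA2) or RelA(S276A) line, and 11 to 18 without each library. Differences between lines (37) were 91 with fragments and 46 to 168 without each library. Where a line is left out, fewer samples are tested, and the cause of the other shifts was not tested.

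The labels do not say whether a replicate number marks a pairing. Deviations of same-numbered libraries correlated at -0.014, -0.0012 and 0.033 in the 3 lines by FPKM, and at 0.084, -0.014 and 0.048 by fragments. These values run across genes, which are not replicates, and cannot decide it. With a replicate block, 65 genes fell, 111 rose, 8 zinc finger genes fell and 7 genes differed between lines, and with fragments and the block 767 fell, 379 rose and 101 zinc finger genes fell. Of the 20 named falls, 15 kept their call without each library. Terf2 lost it without 10 of the 12, Med18 without 10, Rhebl1 without 9, 1520402A15Rik without 8 and Zfp775 without 5, with adjusted p of at most 0.106 in limma. The 10 named rises kept theirs wherever they were tested. Cxcl1, Cxcl10, Fos, Il23a and Kprp could be tested without only 6 of the 12, because without any library at 1 h they missed the filter. The same held for Ccl20, and for Bmf and Zfp108 with the libraries at 0 h. Among the 96, a further 11 lost a call without some library, Brd2, Cry2 and Slc25a28 without 11, Cd68 and Sesn2 without 10, Tef, Wdr92 and Fbxo33 without 8, Dnajb1 without 7, Slc2a6 without 4 and Slc24a6 without 3.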
